A study of Mus musculus with 20 samples.

Results

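Peritubular capillaries were compared with post-capillary venules in the cortex of healthy mouse kidney, gene by gene, in 4 laser-microdissected mRNA libraries of each vessel. These 8 libraries were chosen from the 20 samples of the series by their compartment label and by the letter of the compartment in the deposited count columns, with no measured value used. The other 12 samples are 4 each of arterioles, glomeruli and whole kidney, and they enter here as levels beside the genes described. All groups share the same background: young adult male wild-type mice of the strain C57BL6/OlaHsd, untreated, with kidneys snap-frozen and cut as cryosections. Venules were recognised by their shape on hematoxylin-stained slides. Peritubular capillaries were found on separate slides with a fluorescent isolectin B4 stain, and the area cut for them was smaller. Vessel, stain and cut area therefore coincide and cannot be told apart in these data. Per the study's methods, each mouse gave a slide for venules, arterioles and glomeruli and another for capillaries. Capillary and venule libraries may therefore share mice. The labels do not name the mouse behind each library, and the libraries were not paired in the test. The p-values can speak only for the variation among the libraries themselves.

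Peritubular capillaries are thin endothelial tubes wrapped around the cortical tubules, mostly proximal tubule, and they take up what the tubules reclaim from the filtrate. They drain into post-capillary venules, which have a wider lumen and a thin coat of mural cells and connective tissue, and which are the usual site of leukocyte exit from blood. A cut of either vessel holds its endothelium together with blood in the lumen and any neighbouring cells inside the laser line. In such bulk samples a lower level of a gene can mean fewer cells of a type or less RNA per cell, and the 2 cannot be told apart.

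The 8 libraries held between 4639090 and 10585288 counts, the lowest in venule library 98. Capillary library 100 stood apart: 6349 genes had over 10 counts there, against 8834 to 9478 in the other capillary libraries and 8545 to 10543 in the venule libraries. Many genes were uneven within a group. Of the 9476 genes tested, 2809 (29.6%) had at most 3 counts in one capillary library and at least 100 in another. Among the venule libraries 2219 (23.4%) did so, against 33.2% in arterioles, 14.6% in glomeruli and 0 in whole kidney. Whole kidney libraries had fewer PCR cycles than the dissected ones, which followed a low-input protocol. The mean Spearman correlation between libraries was 0.596 within capillaries, 0.591 within venules and 0.559 between them. A gene was called where its adjusted p was under 0.05 and its log2 fold change was beyond 1 in edgeR's quasi-likelihood test. Levels are given as CPM, counts scaled to a common library total over the 8 libraries, with the SD over 4 libraries. Positive log2 fold changes are higher in venules.

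In all, 76 genes were called higher in peritubular capillaries (0.802% of those tested) and 35 higher in post-capillary venules (0.369%). The capillary genes included 16 solute carriers, and 16 of the 76 were in the lists of proximal tubule genes. The venule genes were led by the 4 globins, by collagens and other connective tissue genes, and by Igf1. The capillary differences were smaller, with a median of -1.81 against 3.02 for the venule genes. Across all genes the median log2 fold change was -0.06. In all 35 venule genes the 4 venule libraries lay above the 4 capillary libraries, and 70 of the 76 capillary genes were apart in the other direction. Among all genes tested, 3.99% and 3.67% were apart in this way. The calls came from the same 8 libraries, so the separation is a description and no added evidence. Which vessel had more calls depended on the test: DESeq2's Wald test gave 259 capillary and 465 venule genes, and the fit of all 16 microdissected libraries gave 9 and 38. The Wald test shared 48 of the 76 and 30 of the 35 genes, and the fit of 16 shared 8 and 18. With 1 library left out in turn, 23 capillary and 12 venule genes were called in all 8 fits, and all 111 genes kept their sign. These fits reuse the libraries that made the calls, so a kept sign is no independent evidence. The capillary calls fell to 41 and 42 without capillary library 98 or 100, and to 44, 32, 36 and 33 without venule library 93, 96, 98 or 100. The venule calls fell to 18, 14, 17 and 17 without those 4 venule libraries.

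**Figure D1:**
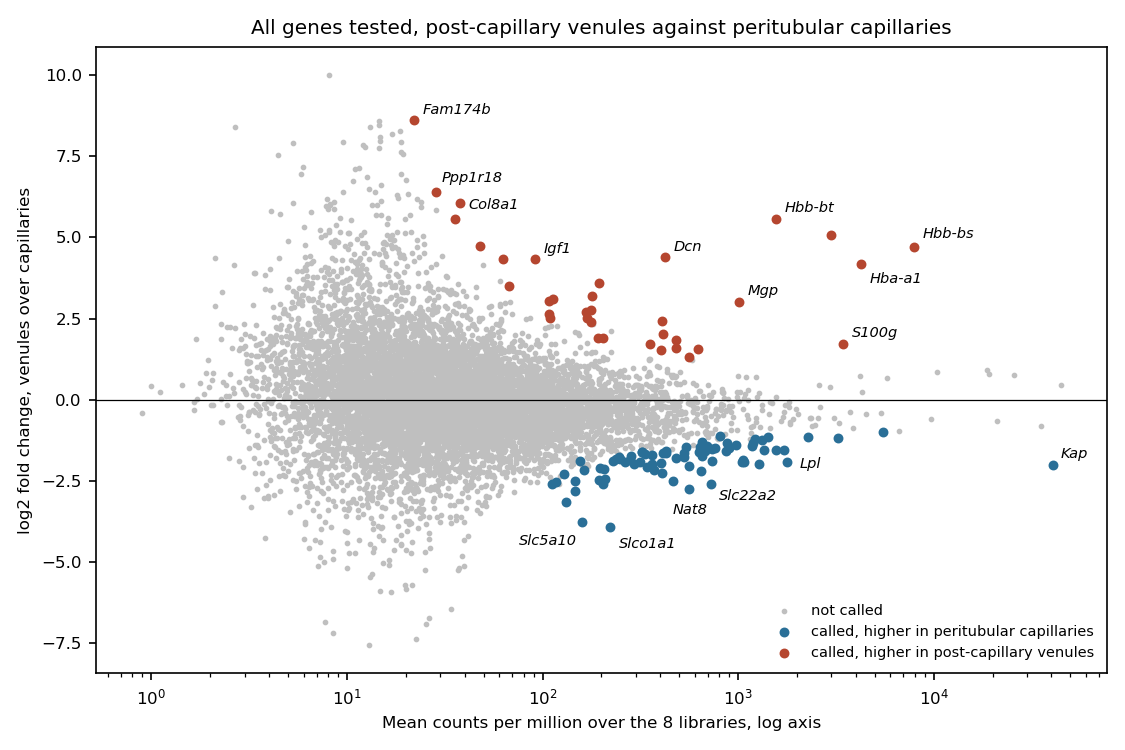
Each point is 1 of the 9476 genes tested, with its mean CPM over the 8 libraries on a log axis and its log2 fold change of venules over capillaries. The 76 genes called higher in capillaries (blue) lie between -1.0 and -3.92, and the 35 called higher in venules (red) between 1.30 and 8.62, while many genes of low counts with large differences were not called.

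The most abundant capillary gene was Kap, the kidney androgen-regulated protein of proximal tubule cells (chr6:133849851-133853762, GRCm38). Its level was 50661, 55500, 70886 and 82302 CPM in capillary libraries 93, 96, 98 and 100, and 18570, 16211, 15230 and 14951 in the venule libraries of the same numbers. All capillary libraries were thus far above all venule libraries. The log2 fold change was -2.0 ± 0.19 (SE; adjusted p = 4.43e-08). Kap was the gene with the most counts in each capillary library, with 5.16% to 6.68% of the library. By share of counts it was highest in library 98, with 6.07% in library 100.

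Solute carriers made up the largest family. Of 221 carriers tested by symbol (Slc and Slco), 16 were called higher in capillaries and 0 in venules, with a median of -0.54. Among the organic anion and cation carriers of family 22, 5 of 14 were called: Slc22a2, Slc22a6, Slc22a8, Slc22a18 and Slc22a30. Slc22a2, the basolateral organic cation carrier Oct2, was at 1100, 1184, 973 and 1700 CPM in capillaries and at 204, 182, 195 and 247 in venules (log2 fold change -2.58 ± 0.31, adjusted p = 6.78e-06). The groups were widely separate and tight. Slc22a6, the organic anion carrier Oat1, was at 1686 ± 492 CPM against 450 ± 38.3 (-1.91 ± 0.29, adjusted p = 0.000234). Slc22a8, or Oat3, its neighbour on chromosome 19, was more spread, from 458 to 1793 CPM in capillaries and from 275 to 403 in venules (-1.59 ± 0.36, adjusted p = 0.0204). Its call was kept only without capillary library 93 or 96.

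The largest capillary differences were also carriers. Slco1a1, an organic anion carrier of the apical membrane, was at 320, 357, 346 and 645 CPM in capillaries and at 45, 27.1, 34.3 and 3.77 in venules (-3.92 ± 0.57, adjusted p = 0.000124). Slc5a10, a sodium-coupled sugar carrier, was at 218, 313, 217 and 434 CPM against 42.1, 5.46, 37.6 and 1.82 (-3.77 ± 0.71, adjusted p = 0.00373). In both, the venule libraries varied more in ratio than the capillary libraries, and library 100 was lowest in venules and highest in capillaries. Slc16a9, a monocarboxylate carrier, followed with -3.14 ± 0.64 (adjusted p = 0.00796). The fatty acid carrier Slc27a2 was at 1064 ± 177 CPM against 230 ± 49.0 (-2.21 ± 0.31, adjusted p = 0.000106).

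The sequences before the start of 4 of these genes are shown because their transcripts were higher in capillaries and each holds GTTAAT, a half-site of the tubule factor HNF1. They are the 250 bases before a RefSeq start (GRCm38.p6), printed in the direction of transcription, with GTTAAT or its reverse complement ATTAAC in capitals. Slc5a10 and Nat8 have 2 listed starts each, and a start with the motif was taken. They lie at chr19:8617746-8617995 (+), chr19:8592932-8593181 (+), chr11:61720800-61721049 (-) and chr6:85832280-85832529 (-).
Slc22a6: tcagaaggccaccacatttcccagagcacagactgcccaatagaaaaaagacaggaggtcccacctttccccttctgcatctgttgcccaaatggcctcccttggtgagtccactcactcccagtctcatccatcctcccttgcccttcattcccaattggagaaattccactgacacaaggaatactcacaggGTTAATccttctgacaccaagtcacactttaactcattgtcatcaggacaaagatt
Slc22a8: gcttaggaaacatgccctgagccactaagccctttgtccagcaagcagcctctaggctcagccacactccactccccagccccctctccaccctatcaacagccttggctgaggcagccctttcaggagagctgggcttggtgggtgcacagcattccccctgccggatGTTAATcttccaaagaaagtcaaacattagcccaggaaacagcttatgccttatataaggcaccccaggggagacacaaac
Slc5a10: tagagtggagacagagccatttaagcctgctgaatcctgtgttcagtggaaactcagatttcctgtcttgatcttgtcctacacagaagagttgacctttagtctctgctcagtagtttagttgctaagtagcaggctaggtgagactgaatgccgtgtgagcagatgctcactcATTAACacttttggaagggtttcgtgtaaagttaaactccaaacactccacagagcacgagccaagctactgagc
Nat8: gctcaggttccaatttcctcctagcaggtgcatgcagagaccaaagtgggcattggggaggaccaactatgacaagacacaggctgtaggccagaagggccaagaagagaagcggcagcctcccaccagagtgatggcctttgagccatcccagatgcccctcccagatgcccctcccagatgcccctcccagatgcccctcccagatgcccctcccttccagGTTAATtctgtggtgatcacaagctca
The half-site begins 56, 81, 75 and 27 bases before the start. Of the 61 capillary genes with a promoter in the RefSeq table, 7 (11.5%) held GTTAAT on either strand, against 1 of 27 venule genes (3.70%) and 5.34% of the 7497 genes tested that have one. The TATA box TATAAA stood before 14 of the 61 (23.0%) and before 8.04% of the genes tested. The HNF4 half-site CAAAGT was there in 11 (18%) against 12.5%. Over all 27025 genes of the table, the shares were 7.49%, 14.3% and 14.1%. A gene counted in these shares if any of its listed starts matched. The letters were chosen with the calls known, and a match is not a bound site.

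Proximal tubule genes were covered by 3 lists, for transport, enzymes and the straight S3 segment. Of 24 transport genes, 6 were called higher in capillaries and 0 in venules, and the median was -0.88. The list was not uniform. Slc34a1, the main phosphate carrier of the brush border, passed the adjusted p (0.0344) but not the fold minimum (-0.96), and Slc5a2, the glucose carrier SGLT2 of the first segment, stood at 0.53 with all 4 venule libraries above all 4 capillary libraries (adjusted p = 0.747). Of 26 enzyme genes tested, 7 were called higher in capillaries (Kap, Ggt1, Cyp4b1, Cyp2e1, Acsm2, Mep1a and Acy3), with a median of -0.58. Ggt1, the gamma-glutamyltransferase of the brush border, was at 2031 ± 473 CPM against 519 ± 165 (-1.97 ± 0.29, adjusted p = 0.000199). Of 9 S3 genes, 3 were called higher in capillaries and 9 of 9 were below 0, with a median of -1.88. The S3 carrier Slc7a13 was at 769, 524, 900 and 949 CPM against 93.4, 185, 215 and 63.1 (-2.50 ± 0.39, adjusted p = 0.000351). The protease Napsa (-1.91 ± 0.29) and the phospholipid flippase Atp11a (-1.88 ± 0.32) were the other 2.

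Together the 3 lists took 10.1% to 12.7% of all counts in the capillary libraries and 4.5% to 5.13% in the venule libraries, with no overlap. Whole kidney lay between, at a mean of 7.5%, and arterioles and glomeruli held 1.54% and 1.64%. The share sums the called proximal tubule genes with the other members, so its move with them is no separate result. Kap alone took 5.16% to 6.68% of counts in the capillary libraries. Slc5a2 did not follow, and the part of this share in the other differences was not tested.

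Enzymes outside these lists were also called, among them Nat8, an acetyltransferase, with 529 to 1797 CPM against 118 to 200 (-2.76 ± 0.38, adjusted p = 6.67e-05). Ugt2b37 and Ugt2b38, which attach glucuronic acid to steroids and drugs, were called at -2.50 and -2.26, and 4 of 27 cytochrome P450 genes were called (Cyp2e1, Cyp2j5, Cyp4a31 and Cyp4b1). Nat8, the Ugt2b genes, Slc22a30 and Cyp4a31 have close copies in the genome, so how reads were divided among them is uncertain. Among the 20 fatty acid oxidation genes, 0 were called by edgeR or DESeq2, 5 had an unadjusted p under 0.05, 18 lay below 0 and the median was -0.69. The closest, Etfb, was at -1.21 ± 0.35 (adjusted p = 0.106). At an unadjusted p under 0.05, 503 genes of all those tested were higher in capillaries and 332 in venules.

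Lpl, the lipoprotein lipase that frees fatty acids at the capillary wall, was called higher in capillaries. It was at 2375, 2060, 2677 and 4091 CPM in capillaries and at 717, 636, 722 and 912 in venules (-1.91 ± 0.27, adjusted p = 0.000108), and it was called in all 8 fits with 1 library left out. Ly6a, a surface antigen of endothelium and of some tubule cells, was at 1950 ± 618 against 879 ± 110 CPM (-1.15 ± 0.28, adjusted p = 0.0299), a call kept only without capillary library 93 or 96. Cd36, a fatty acid receptor on the capillary endothelial list, was at 244, 258, 270 and 338 against 37.7, 84.0, 70.8 and 122 CPM. The groups did not overlap, but its adjusted p was 0.0532 (-1.82 ± 0.48). Gpihbp1, which carries Lpl to the capillary lumen, was between 2.98 and 111 CPM in capillaries and between 0.569 and 11.4 in venules, with overlap (-3.61 ± 1.6, adjusted p = 0.476). On the scale of 20 libraries, Lpl averaged 3086 CPM in capillaries, 1682 in whole kidney, 786 in venules and 575 in arterioles. Cd36 averaged 304 in capillaries, 163 in whole kidney, 83.3 in venules and 3.64 in arterioles. In both, whole kidney lay between capillaries and venules, as for Kap, and glomeruli lay below whole kidney. The study reports that some tubular material could not be avoided in cuts of either vessel. Which cells gave these transcripts was not tested.

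**Figure D2:**
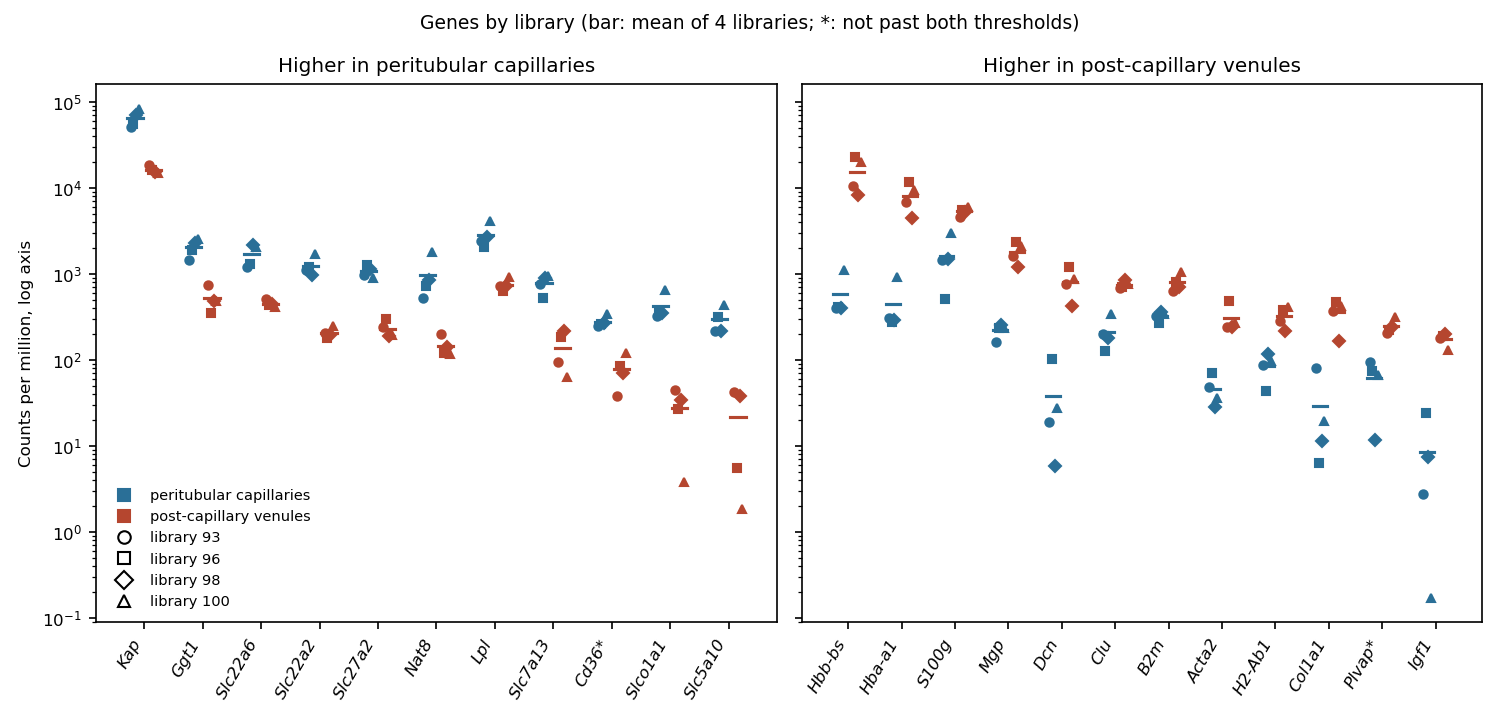
The panels plot CPM (log axis) of 11 genes higher in capillaries (left) and 12 higher in venules (right) in each library. Blue symbols are capillaries, red symbols venules, the shape gives the library number and the bar the mean of 4. An asterisk marks Cd36 and Plvap, which did not pass both thresholds, and in every gene shown the 2 groups do not overlap.

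The markers that define endothelium did not set the capillary libraries above the venule libraries. The study reports endothelial genes higher in dissected capillaries than in dissected tubules, which were not compared here. Of 18 pan-endothelial genes tested, 0 were called (2 at an unadjusted p under 0.05, and 1 by DESeq2), 17 had a log2 fold change above 0 and the median was 0.98. Their summed share was 0.0395% to 0.0664% of counts in capillaries and 0.0822% to 0.139% in venules, and whole kidney had a mean of 0.0438%. Cdh5, the cadherin of endothelial junctions, had 63 counts in all 4 capillary libraries together and 597 in the venule libraries (adjusted p = 0.780). Pecam1 was at 60.3, 38.8, 36.9 and 87.9 CPM against 247, 156, 67.7 and 75.0, so the groups overlapped (1.29 ± 0.65, adjusted p = 0.591). Emcn was at 67.9, 55.2, 75.1 and 550 CPM against 191, 257, 182 and 139 (0.04 ± 0.58, adjusted p = 0.999), with capillary library 100 alone above the venules.

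Of 14 capillary endothelial genes tested, 0 were called (3 at an unadjusted p under 0.05, and 2 by DESeq2), the median was -0.46, and the shares overlapped at 0.0902% to 0.154% against 0.104% to 0.190%. The list split: Plvap, the diaphragm protein of fenestrated endothelium, was at 93.5, 73.8, 11.6 and 67.5 CPM in capillaries and at 206, 224, 240 and 312 in venules (1.99 ± 0.56, adjusted p = 0.0805). Its 4 venule libraries lay above all capillary libraries, opposite to Cd36. Of 8 venous endothelial genes tested, 1 was called higher in venules, Igf1, and all 8 lay above 0 (median 1.16). Selp, the P-selectin of activated and venular endothelium, had too few counts to be tested, with 8 counts in capillaries and 313 in venules. Ackr1, a classical venule marker, had 1 count in all 8 libraries. Of 9 arterial genes, Mgp was called higher in venules (median 0.84). The glomerular endothelial list (3 tested, median 0.45) and the lymphatic list (3 tested, median 2.87) had 0 calls and 0 genes at an unadjusted p under 0.05, while DESeq2 called 0 and 1 of them.

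Igf1, the insulin-like growth factor 1 (chr10:87858265-87937042), was high in venules and low in every other kind of sample. It was at 181, 187, 200 and 130 CPM in venules and at 2.79, 23.9, 7.52 and 0.172 in capillaries, so every venule library was above every capillary library by far. The log2 fold change was 4.34 ± 0.91 (adjusted p = 0.0115), and the call held with each library left out but not in the fits of 16 or 20 libraries. On the scale set over all 20 libraries its mean was 182 CPM in venules, 26.7 in whole kidney, 15.6 in arterioles, 9.14 in capillaries and 5.16 in glomeruli. Of the 8 genes of the IGF system tested, it alone was called (median -0.21). Its receptor Igf1r was at 331 to 995 CPM in capillaries and 161 to 268 in venules (-1.30 ± 0.38, adjusted p = 0.108).

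The globins gave the smallest adjusted p-values. Hbb-bs, a beta chain of adult hemoglobin, was at 10608, 22603, 8328 and 19744 CPM in venules and at 402, 413, 404 and 1120 in capillaries (4.71 ± 0.36, adjusted p = 7.08e-10). Hbb-bt (5.58 ± 0.42), Hba-a1 (4.17 ± 0.37) and Hba-a2 (5.07 ± 0.46) followed with adjusted p-values of 7.08e-10, 1.51e-08 and 2.62e-08. In every capillary group, library 100 was the highest of the 4. The upstream sequences of these 4 genes are shown because the genes moved together. The pairs are near copies, so counted reads can be split between them. Each run is the 250 bases before the RefSeq start (GRCm38.p6), at chr7:103827929-103828178 (-), chr7:103813924-103814173 (-), chr11:32283422-32283671 (+) and chr11:32296242-32296491 (+). Capitals mark the TATA box core ATATAA, the CCAAT box on either strand, the CACCC box and the GATA site GATAAG.
Hbb-bs: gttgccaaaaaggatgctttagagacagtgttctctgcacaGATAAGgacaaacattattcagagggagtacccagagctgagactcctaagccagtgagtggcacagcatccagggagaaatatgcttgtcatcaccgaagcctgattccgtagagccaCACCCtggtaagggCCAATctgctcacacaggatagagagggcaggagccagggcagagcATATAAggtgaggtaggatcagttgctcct
Hbb-bt: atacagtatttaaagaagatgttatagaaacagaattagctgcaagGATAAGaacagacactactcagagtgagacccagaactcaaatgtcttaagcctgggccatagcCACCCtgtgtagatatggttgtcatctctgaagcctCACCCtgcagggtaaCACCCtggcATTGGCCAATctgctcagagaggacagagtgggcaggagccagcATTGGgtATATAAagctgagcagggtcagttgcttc
Hba-a1: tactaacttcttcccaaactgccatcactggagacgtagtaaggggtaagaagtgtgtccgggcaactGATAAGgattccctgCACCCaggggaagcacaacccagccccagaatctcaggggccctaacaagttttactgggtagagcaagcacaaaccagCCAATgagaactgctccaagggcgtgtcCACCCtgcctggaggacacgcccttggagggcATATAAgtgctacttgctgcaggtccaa
Hba-a2: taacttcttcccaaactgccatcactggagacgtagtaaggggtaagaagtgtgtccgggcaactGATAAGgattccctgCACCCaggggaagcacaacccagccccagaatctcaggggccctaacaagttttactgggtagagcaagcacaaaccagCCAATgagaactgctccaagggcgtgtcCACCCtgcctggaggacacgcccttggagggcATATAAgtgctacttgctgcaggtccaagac
All 4 runs hold all 4 motifs, with the TATA core starting 28 to 31 bases before the start. Searched on both strands, ATATAA stood before 4.86% of genes tested with a promoter, CCAAT before 39.9%, CACCC before 61.5% and GATAAG before 5.64% (10.5%, 37.5%, 54.5% and 7.60% of all promoters). Compared without gaps, the Hba-a1 and Hba-a2 runs are identical over 247 of 247 bases with a shift of 3. Hbb-bs and Hbb-bt share 127 of 249 bases, a value that inserted or lost bases would lower. These bases lie before the transcript, so they do not show how reads were divided. The division of reads within either pair remains uncertain.

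Beyond the globins, the other 6 erythrocyte genes tested had no call by edgeR. DESeq2 called 1 of them, Slc4a1, the anion exchanger of the red cell membrane (4.86 and adjusted p = 0.494 in edgeR). Alas2, the heme enzyme of red cell precursors, was at 3.16 ± 1.02 (adjusted p = 0.161), and Fech and Slc25a37 lay below 0. The erythrocyte list, globins included, took 2.00% to 4.90% of counts in venules and 0.104% to 0.209% in capillaries, a ratio of means of 25.1. The globins held nearly all of its venule counts, with 102159 to 503822 each against at most 6725 for any other member. The ratio therefore restates the globin difference. The mean share of the list was 2.45% in arterioles, 1.59% in glomeruli and 0.379% in whole kidney, all between the means of the 2 vessels. Of 7 platelet genes only Itga2b was tested (5.70 ± 1.97, adjusted p = 0.220). Of 15 leukocyte and macrophage genes tested, 0 were called (2 at an unadjusted p under 0.05, and 1 by DESeq2) and 14 lay above 0 (median 1.51). Their share was 0.0392% to 0.0887% in venules and 0.0194% to 0.0312% in capillaries. The part of blood in the vessel lumen in these differences was not tested.

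Connective tissue genes formed the next group of the venules. Of 12 fibroblast and adventitial genes tested, 5 were called higher in venules (Dcn, Col1a1, Col1a2, Col3a1 and Gsn), all 12 lay above 0 and the median was 2.88. Dcn, the collagen-binding proteoglycan decorin, was at 754, 1207, 419 and 858 CPM in venules and at 19.1, 102, 5.81 and 27.5 in capillaries (4.40 ± 0.59, adjusted p = 4.30e-05). Col1a1, the main chain of type I collagen, was at 357 ± 133 CPM against 29.3 ± 34.2 (3.61 ± 0.64, adjusted p = 0.00188), with capillary library 93 the highest of its group at 79.9. Col1a2 was at 2.7 ± 0.55 (adjusted p = 0.00933) and was not called without venule library 96. Col3a1 (3.12 ± 0.78, adjusted p = 0.0362) kept its call only without capillary library 96 or 100. By symbol, 5 of 20 collagens and 3 of 5 small leucine-rich proteoglycans (Dcn, Bgn and Prelp) were called higher in venules, and 0 in capillaries. Mgp, the matrix Gla protein that keeps vessel walls free of mineral, was at 1620, 2314, 1191 and 2079 CPM against 161, 236, 257 and 234 (3.02 ± 0.31, adjusted p = 2.34e-07).

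The fibroblast share was 0.194% to 0.362% in venules, 0.0245% to 0.0415% in capillaries, and 0.417% and 0.0583% on average in arterioles and whole kidney. Basement membrane genes did not follow: 0 of 16 were called (2 at an unadjusted p under 0.05, and 2 by DESeq2), 8 lay on either side of 0 and the median was -0.10. Col4a4 was lower in all 4 venule libraries, at 69.3 to 207 CPM against 343 to 440 (-1.48 ± 0.41, adjusted p = 0.0729). Timp2, an inhibitor of matrix proteases (2.01 ± 0.41, adjusted p = 0.00789), Tmsb4x, an actin-binding peptide (2.42 ± 0.41, adjusted p = 0.000971), and Clu, a secreted chaperone (1.83 ± 0.35, adjusted p = 0.00401), were called with each library left out.

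Of 14 smooth muscle genes tested, 1 was called higher in venules, 4 had an unadjusted p under 0.05, 13 lay above 0 and the median was 1.54. Acta2, smooth muscle actin, was at 238, 484, 243 and 268 CPM in venules and at 48.1, 70.3, 28.4 and 35.7 in capillaries (2.76 ± 0.50, adjusted p = 0.00237), and was not called without venule library 96. Arterioles were far above both, at 12564 CPM on the scale of 20 libraries against 325 in venules. Myl9 was at 1.75 ± 0.47 (adjusted p = 0.0652). Of 9 mesangial and pericyte genes, 0 were called by edgeR or DESeq2 (1 at an unadjusted p under 0.05, median 1.61). The renin gene Ren1 was at 144, 3.07, 40.6 and 189 CPM in venules and at 5.34, 33.6, 17.8 and 3.26 in capillaries (2.65 ± 1.10, adjusted p = 0.402). Of 10 podocyte genes, Thsd7a was called higher in venules (4.73 ± 1.12, adjusted p = 0.0260), and the median was 0.46. The call of Thsd7a was kept only without capillary library 98 or 100.

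**Figure D3:**
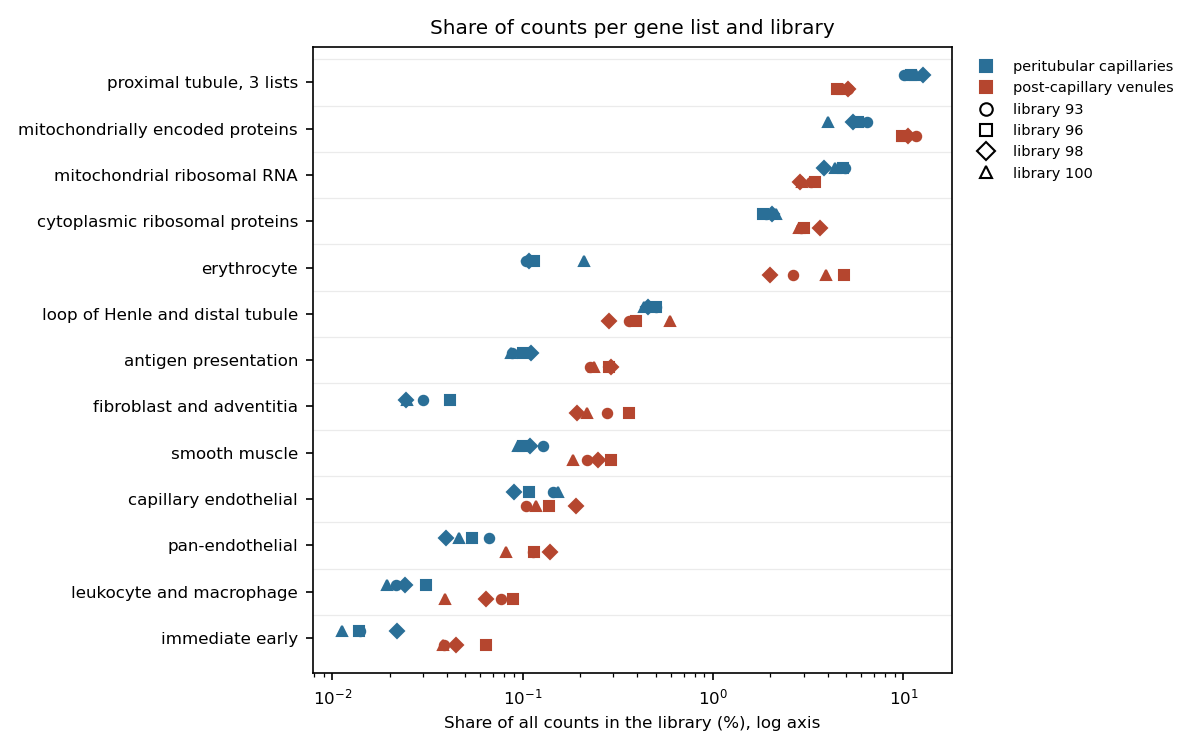
Share of all counts (percent, log axis) that 13 gene lists took in each library, blue for capillaries and red for venules, with the shape giving the library number. The proximal tubule and mitochondrial ribosomal RNA lists were higher in all 4 capillary libraries, the capillary endothelial and distal tubule lists overlapped, and the other 9 were higher in all 4 venule libraries.

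Distal nephron genes went both ways. Calb1, the calcium-binding protein of the distal convoluted and connecting tubule, was at 675, 635, 848 and 1547 CPM in venules and at 478, 163, 229 and 396 in capillaries (1.55 ± 0.37, adjusted p = 0.0269). S100g, another calcium-binding protein of the same segments, was at 4557, 5507, 5245 and 5894 CPM against 1461, 515, 1481 and 2942 (1.73 ± 0.32, adjusted p = 0.00348). Slc12a3, the salt carrier of the distal convoluted tubule, went the other way, at 656, 1041, 717 and 1296 CPM in capillaries and 361, 515, 216 and 420 in venules (-1.29 ± 0.33, adjusted p = 0.0463). Its call was kept only without capillary library 93. Egf, which the same segment makes, was at 683 ± 127 CPM in capillaries and 236 ± 168 in venules (-1.53 ± 0.40, adjusted p = 0.0553). Of 13 loop and distal genes, the 2 called, Calb1 and Slc12a3, were 1 in each direction, and the median was -0.73. DESeq2 called 0 of the 13, and 4 had an unadjusted p under 0.05. The call of Calb1 did not hold in all 8 fits with 1 library left out. Among 12 collecting duct genes, Atp6v1g3, a proton pump subunit of intercalated cells, was called higher in venules (3.19 ± 0.77, adjusted p = 0.0303), and the median was 0.75.

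Of 13 antigen presentation genes tested, 3 were called higher in venules, 4 had an unadjusted p under 0.05, 12 lay above 0 and the median was 1.33. B2m, the light chain of MHC class I, was at 630, 809, 706 and 1046 CPM against 323, 270, 363 and 339 (1.30 ± 0.31, adjusted p = 0.0299). The class II chains H2-Ab1 (1.91 ± 0.45, adjusted p = 0.0262) and H2-Aa (2.39 ± 0.61, adjusted p = 0.0414) were called, while Cd74 was not (1.99 ± 1.11, adjusted p = 0.708). The call of B2m was kept only without capillary library 100 and that of H2-Aa only without capillary library 96. That of H2-Ab1 did not hold in all 8 fits with 1 library left out either. DESeq2 called 2 of the 13 genes. Leukocyte adhesion genes gave 0 calls of 10 (median 0.67), hemostasis 0 of 7 (median 1.62), vasoactive signalling 0 of 15 (median 0.76) and angiogenic ligands and receptors 0 of 10 (median 0.25). In these 4 lists 0, 2, 4 and 1 genes had an unadjusted p under 0.05, and DESeq2 called 1, 2, 2 and 1.

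Of 7 mitochondrially encoded protein genes tested, 0 were called by edgeR or DESeq2 (4 at an unadjusted p under 0.05), and 7 lay above 0 with a median of 0.80. The genes mt-Nd1, mt-Cytb and mt-Nd4 passed the adjusted p but not the fold minimum, and mt-Nd3, with far fewer counts, passed the fold minimum but not the adjusted p (1.96 ± 1.05, adjusted p = 0.654). Subunit mt-Nd1 was at 22871, 22534, 22712 and 29272 CPM in venules and at 13099, 12012, 13449 and 13307 in capillaries (0.91 ± 0.18, adjusted p = 0.00842). The large ribosomal RNA mt-Rnr2 of the same genome went the other way, at 44851 ± 7832 CPM in capillaries and 25470 ± 2668 in venules (-0.82 ± 0.18, adjusted p = 0.0177). The small ribosomal RNA mt-Rnr1 did not follow it (0.25, not called). On the scale of 20 libraries mt-Rnr1 averaged 4191 CPM in capillaries and 4910 in venules, far below mt-Rnr2. The share of the ribosomal RNA list is thus mainly that of mt-Rnr2. The protein-coding genes took 9.80% to 11.6% of counts in venules, 4.02% to 6.47% in capillaries and 11.6% in whole kidney. The genes mt-Co2, mt-Co3, mt-Nd4l and mt-Atp8 were listed at 0 in all 8 libraries. Of 23 nuclear genes of oxidative phosphorylation, 0 were called by edgeR or DESeq2 (2 at an unadjusted p under 0.05, median -0.17).

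Cytoplasmic ribosomal protein genes lay above 0 in 69 of 82 cases (median 0.50). Immediate early genes lay above 0 in 12 of 12 cases (median 1.37) with 0 calls (1 at an unadjusted p under 0.05, and 2 by DESeq2), and their share was 0.0381% to 0.0646% in venules and 0.0112% to 0.0220% in capillaries. Heat shock genes had 0 calls of 8 (2 at an unadjusted p under 0.05, and 1 by DESeq2, median 0.21). A role of tissue handling, which such genes can follow, was not tested.

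**Figure D4:**
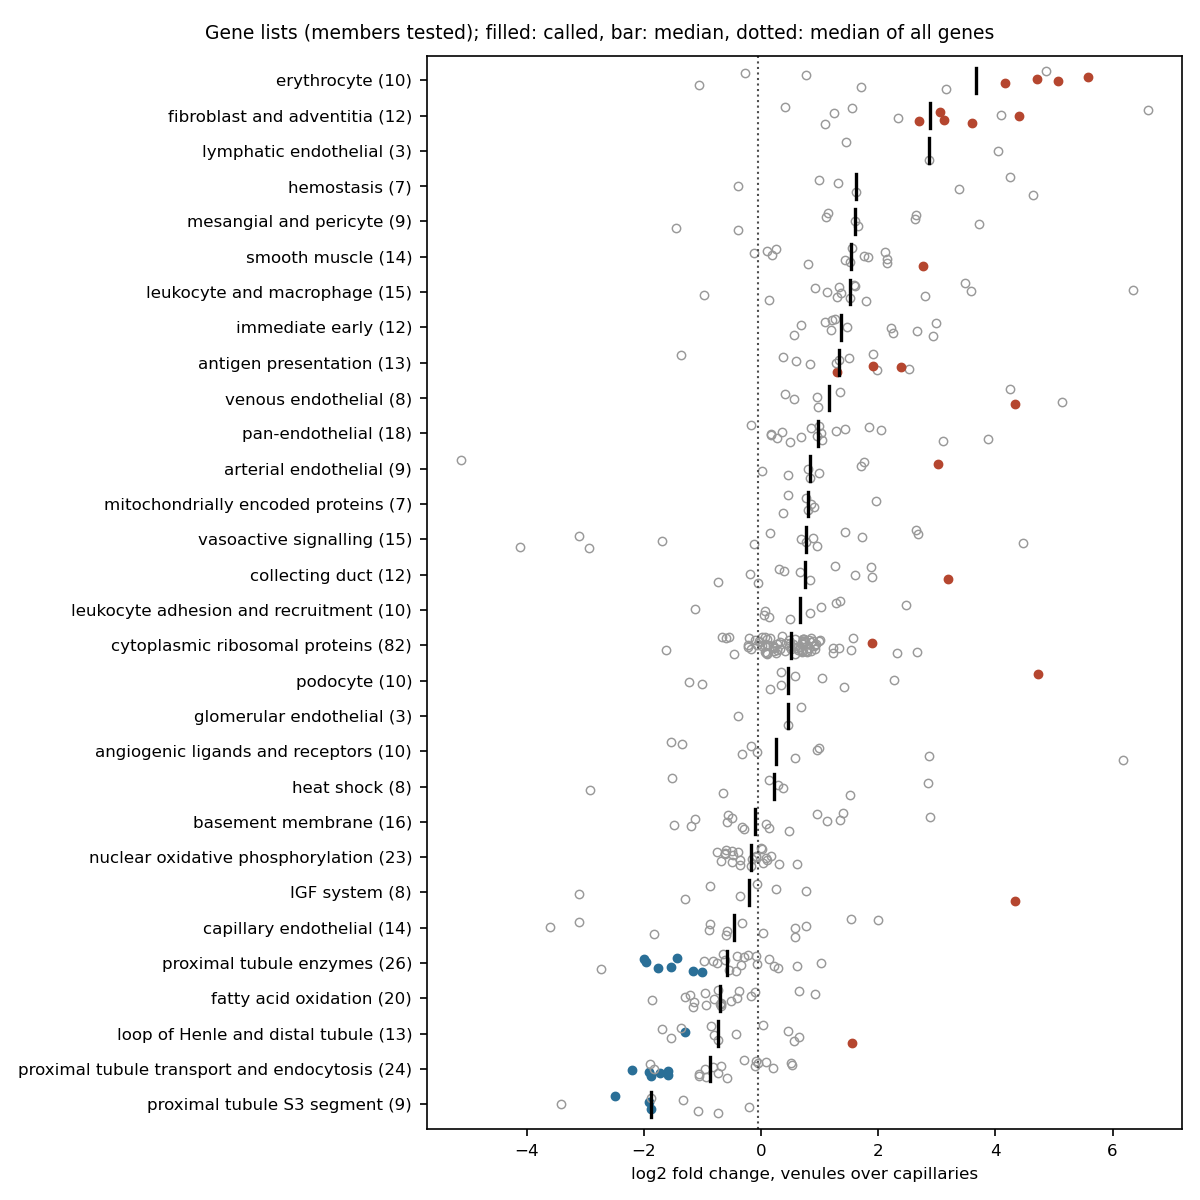
Log2 fold change of venules over capillaries (horizontal axis) for each member of the gene lists with 3 or more members tested, ordered by median. Filled points were called, the black bar is the list's median and the dotted line the median of all genes (-0.06). The 3 proximal tubule lists hold 6, 7 and 3 filled points on the left, beside 1 for the distal tubule, and the erythrocyte and fibroblast lists hold 4 and 5 on the right.

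Some venule genes had nearly no counts in capillaries. Fam174b, a membrane protein of little known function, had 1364 counts in venules and 3 in capillaries, a ratio per library total of 495 (95% exact interval 169 to 2400, counting error only), and its log2 fold change of 8.62 depends on how the fit treats such low counts. Ppp1r18 was at 34.9 to 81.4 CPM against 0.486 to 0.994 (6.40 ± 1.59, adjusted p = 0.0359) and Col8a1, a collagen of vessel walls, at 19.2 to 128 against 0.486 to 1.70 (6.07 ± 1.39, adjusted p = 0.0222). The calls of these genes were lost in 5 to 7 of the 8 fits with 1 library left out.

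The study itself measured some genes by quantitative RT-PCR for these compartments, which it had chosen from these samples, so they are not independent evidence of direction. Of those for capillaries, Slc22a2 and Slc5a10 were called. Pzp was at 64.2 to 118 CPM against 0.487 to 27.5 (-2.96 ± 1.12, adjusted p = 0.304). Of 3 for venules, Igf1 was called, and mt-Nd2 was at 7407 ± 3034 CPM in capillaries and 13323 ± 4875 in venules (0.85 ± 0.27, adjusted p = 0.145).

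The other samples place these genes. On the scale set over all 20 libraries, 74 of the 76 capillary genes were highest in capillaries among the 5 kinds of sample, against 28.4% of all genes tested, and whole kidney lay between capillaries and venules in 64, as it did in 3990 of the 9476 genes tested. Of the 35 venule genes, 25 were highest in arterioles (36.7% of all genes) and 9 in venules (14.5% of all genes). The contrast that chose these genes also bears on this order, so both counts are descriptions. Kap, for example, had a mean of 71437 CPM in capillaries, 28754 in whole kidney, 17045 in venules, 7818 in arterioles and 3966 in glomeruli. Mgp, in contrast, had 7749 in arterioles, 1906 in venules and 287, 257 and 244 in glomeruli, whole kidney and capillaries. Plvap was highest in venules (259 CPM), above whole kidney (89.6), glomeruli (80.5), capillaries (65.7) and arterioles (50.5). These levels are not scaled to endothelial content. Pecam1 averaged 143 CPM in venules, 65.1 in whole kidney, 350 in glomeruli, 61.3 in capillaries and 1661 in arterioles. By quantitative RT-PCR relative to Pecam1, the study found Plvap highest in both capillaries and venules.

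**Figure D5:**
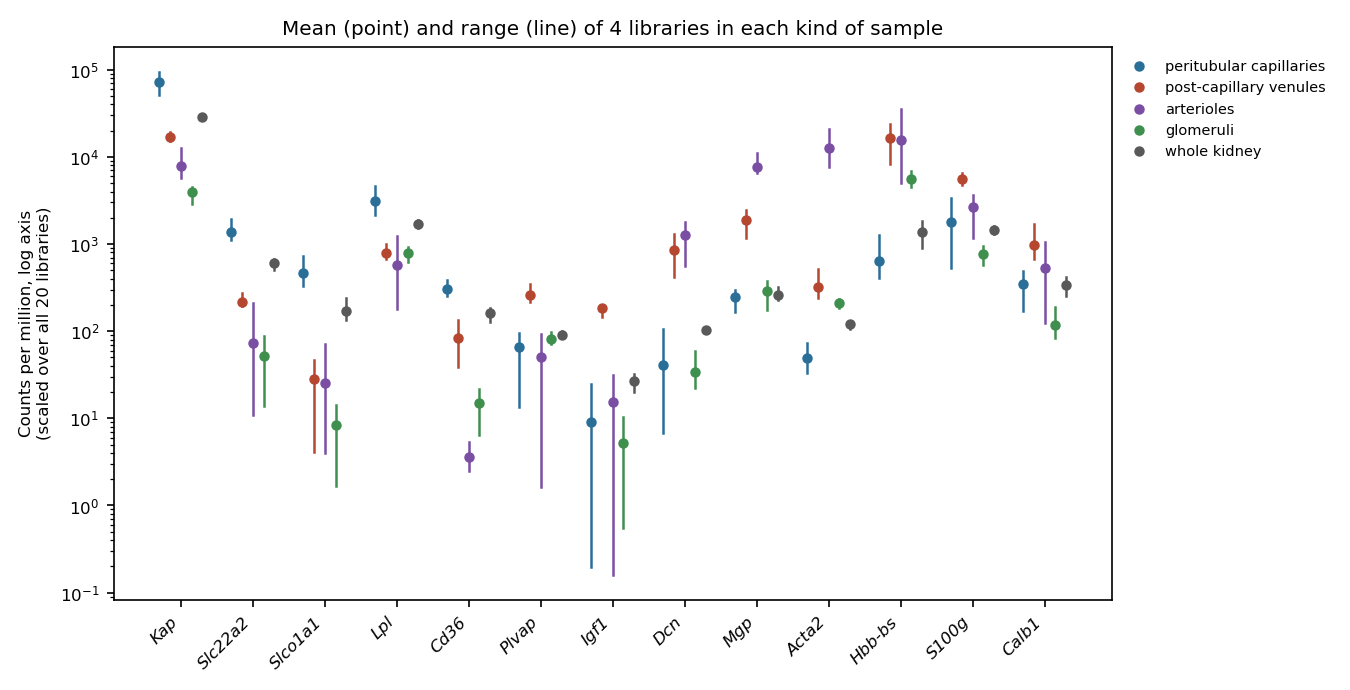
Mean (point) and range (line) over 4 libraries of 13 genes in capillaries, venules, arterioles, glomeruli and whole kidney, in CPM scaled over all 20 libraries (log axis). Kap, Slc22a2, Slco1a1, Lpl and Cd36 are highest in capillaries, Plvap, Igf1, S100g and Calb1 in venules, and Mgp, Dcn and Acta2 in arterioles.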

How the data were processed

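Whole-number counts per gene were deposited by the authors as 1 table of mRNA counts with no normalization. Per the study's methods, cortical vessels were laser-microdissected, 3′ end libraries were made from low RNA input with the same number of PCR cycles for all dissected samples, and reads were aligned with STAR to GRCm38.p6 and counted per gene with HTSeq. The submitters' processing notes give STAR 2.7, HTSeq 0.13, FastQC 0.11.8, MultiQC 1.7 and SAMtools 1.9, and also name featureCounts and GRCm39. No source used here gives molecular identifiers or a strand setting, so copies of 1 molecule cannot be told from separate molecules, and overlapping genes cannot always be told apart. All intervals cover counting error only.

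The table has 168 value columns, of which 20 were used and 148 were not used here. Columns name a group and a number (93, 96, 98 or 100), which the labels do not tie to a sample, and 1 capillary column carries letters that no source explains. Of 34255 genes, 9476 passed filterByExpr. The counts were fitted with edgeR 4.0.16 (R 4.3.3), TMM factors and the quasi-likelihood F test over the 8 libraries, with Benjamini-Hochberg adjustment over all genes tested, and the SE is the size of the log2 fold change over the root of F. Scripts were tested on simulated data. Alternatives were other libraries in the fit, normalizations, filters, DESeq2 1.42.0, a replicate block and leaving out each library.

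The comparison and the 34 gene lists were chosen with earlier results of these data known. Lists are described by counts and medians, with no test. Genes were named by rule: per direction, the 12 called genes of largest fold with at least 10 CPM in all 4 higher libraries and no overlap, the 6 next of highest level, up to 3 members of smallest p per list, and the genes the study measured by RT-PCR. Further genes were named after their values were seen. Coordinates are from GENCODE M21 (GRCm38). Results for some genes are not reported here.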

Additional observations from a re-analysis of the deposited data

Results flagged for a closer look

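Of 114 groups of 4 values examined, 10 held a library whose gap to the next exceeded the critical value of Dixon's test for 4 values, and chance gives about 1 in 20. Capillary library 100 was the highest of its group for 7 of them: the erythrocyte share of counts (0.209%), Hbb-bs (1120 CPM), Hba-a1 (916 CPM), Hbb-bt (124 CPM), Slco1a1 (645 CPM), Glb1 (380 CPM) and Emcn (550 CPM). This is also the capillary library with the fewest genes over 10 counts, and its TMM factor of 0.748 raises its CPM. The globins make up most of the erythrocyte share, so the groups are not independent. The 1 in 20 is therefore no fitting measure for the 10. Capillary library 96 was high for Cdh5 (7.24 CPM). Venule library 98 had the lowest total of its group (4639090 counts), and venule library 100 was high for mt-Nd1 (29272 CPM). The directions of the called genes among these held without those libraries.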

How the results depend on the processing

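In place of the 76 capillary and 35 venule calls, the fit of the 16 microdissected libraries gave 9 and 38. Of these, 8 and 18 were among the reported genes. The fit of all 20 gave 28 and 67, with 23 and 25 among them. DESeq2 size factors gave 47 and 22, all among them. The version 4 form of edgeR gave 116 and 56 (76 and 34 among them), and no filter on low counts 127 and 43 (75 and 33). The adapted independent filter gave 191 and 47 (76 and 28), and DESeq2's Wald test 259 and 465 (48 and 30). Robust estimation gave 83 and 34, factors without mitochondrial, erythrocyte and proximal tubule genes 72 and 35, and no fold minimum 78 and 38. Leaving out 1 library gave 32 to 82 capillary calls (lowest without venule library 96) and 14 to 42 venule calls (lowest without venule library 96). Calls among genes of the lists numbered 38, and 23 to 35 with 1 library left out, 21 in the fit of 16 libraries and 64 in the Wald test. Each setting counts the genes its own filter kept, so the Wald test also covers list genes outside the 9476. The causes were not tested. Of 117 named genes, 3 not called ones turned sign. Emcn (0.04) was at -0.06 in the fits of 16 and 20 libraries, -0.15 with DESeq2 size factors, -0.04 with no or the adapted filter, and -0.29 to 1.54 with 1 library left out. Tbx3 (0.67) was at -1.26 with the replicate block and between -2.76 (without venule library 98) and 1.16 with 1 library left out. Plat (-0.40) was at 0.22 with the replicate block and between -1.01 and 1.26 (without capillary library 93) with 1 library left out. With the column number as a replicate block, 108 capillary and 45 venule genes were called. Same-numbered libraries correlated by 0.007 to 0.015 in their deviations, under 0.1, although each capillary library correlated best with its own number. The numbers were not taken to pair the samples, but so weak a correlation does not show that the mice differed. With mitochondrial and erythrocyte counts left out of the totals, the ratio of shares crossed 1 for 2 lists, nuclear oxidative phosphorylation (0.974 to 1.06) and heat shock (0.957 to 1.04), and for no other list.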
